A study of Mus musculus with 19 samples.

Results

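The heat shock and cold inducible genes described here are 10 mouse genes: the small heat shock proteins Cryab and Hspb1, the Hsp70 chaperones Hspa1a, Hspa1b, Hspa8 and Hspa5, the chaperone partners Hsph1 and Dnajb1, and the cold inducible RNA-binding proteins Cirbp and Rbm3. A probe set, the group of short array probes that reports 1 transcript, was a member where 1 of the symbols deposited for it was 1 of these 10 names. This gave 24 of the 45037 probe sets on the array that are not controls, and 10 of the 17967 genes that could be named. Where a gene had several probe sets, the one with the highest mean signal stood for the gene, and all 24 were also tested on their own.

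Heat shock proteins bind unfolded proteins and hold, refold or hand them on for degradation. Their inducible members are switched on by heat shock factor 1 when misfolded proteins accumulate, while Hspa8 and Hspa5 are made in unstressed cells, in the cytosol and in the endoplasmic reticulum. Cirbp and Rbm3 bind RNA, and their messages rise in mildly cooled mammalian cells, so that they are often read as the opposite arm of the temperature response.

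The samples were cerebral cortex of wild type C57BL/6 mouse fetuses on gestational day 16, with 1 array per fetus and 19 arrays in 4 groups. Control dams (5 arrays) drank water with 2% sucrose from gestational day 13 and received a single injection of 0.9% saline 12 h before death. Hypo dams (5 arrays) drank 1% perchlorate and 0.025% methimazole, which block thyroid hormone synthesis, in 2% sucrose over the same 3 days and received the same vehicle. Hypo+ dams (5 arrays) had the same goitrogens and were injected with thyroxine (T4) at 25.0 µg and triiodothyronine (T3) at 2.5 µg per 100 g body weight. Hyper dams (4 arrays) drank sucrose alone and were injected with T4 at 100.0 µg and T3 at 10.0 µg per 100 g. All treatments were given to the dam, and 20 dams were divided into groups of 5, but the labels do not tie an array to a dam. One of 20 samples had been removed by the authors for poor quality. The p-values below measure the spread between these fetuses, and the number of arrays limits their precision. In whole cortex, fewer cells of a type and less RNA per cell cannot be told apart.

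Array medians ran from 73.1 to 106 signal units. All 11 markers of fetal cortex were measured, with mean signals from 449.8 for Emx2 to 6281 for Tubb3. The fetuses were labelled female, but 2 arrays, hypo+ replicate 1 and hyper replicate 4, carried the Y-linked gene Ddx3y at 695.9 and 546.7, against at most 11.3 on the others, and had the lowest Xist signals, 68.8 and 97.2. The calls of Cryab and Hsph1 are given with and without these 2 arrays, and the other results with them.

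Promoter sequence is shown for the members in which a heat shock element core or an endoplasmic reticulum stress element was found. The heat shock and unfolded protein responses are known to act through elements of these kinds. Whether the matched stretches do so in these genes was not tested. RefSeq windows on GRCm38.p6 were matched for 7 of the 10 members, and 250 bases before each start were searched on both strands for GAANNTTC and TTCNNGAA, 2 ways of abutting the heat shock factor unit, and for the stress element, CCAAT and CCACG with any 9 bases between them. The 125 bases before the start are printed 5′ to 3′ on the gene's strand, with the matches in capitals.
Hspb1, chr5:135887794-135887918, plus strand: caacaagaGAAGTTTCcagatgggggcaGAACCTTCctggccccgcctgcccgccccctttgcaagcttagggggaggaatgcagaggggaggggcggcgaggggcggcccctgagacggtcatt
Hspa1a, chr17:34972157-34972281, minus strand: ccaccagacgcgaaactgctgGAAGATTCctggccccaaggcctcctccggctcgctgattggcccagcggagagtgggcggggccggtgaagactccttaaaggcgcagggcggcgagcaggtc
Hspa1b, chr17:34959239-34959363, minus strand: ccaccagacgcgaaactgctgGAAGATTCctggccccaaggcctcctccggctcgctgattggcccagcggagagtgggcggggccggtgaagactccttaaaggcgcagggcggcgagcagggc
Hspa5, chr2:34771965-34772089, plus strand: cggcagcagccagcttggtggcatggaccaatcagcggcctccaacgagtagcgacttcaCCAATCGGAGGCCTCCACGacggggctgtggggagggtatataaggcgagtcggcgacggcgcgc
Hsph1, chr5:149636316-149636440, minus strand: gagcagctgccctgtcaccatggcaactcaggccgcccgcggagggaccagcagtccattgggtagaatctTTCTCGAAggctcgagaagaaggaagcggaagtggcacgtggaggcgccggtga

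Hspb1 held GAANNTTC at 2 places, Hspa1a and Hspa1b held it once at the same distance from the start, and Hsph1 held TTCNNGAA. One or the other form was found in 12.8% of 32851 RefSeq windows, so the short core is common. The stress element of Hspa5 was found in 0.113% of windows. The windows of Dnajb1 and Cirbp held none of these letters. Hspa1a and Hspa1b were identical at 247 of 250 bases, and the coding parts of this gene pair are also known to be nearly identical, so that signal assigned to one may come from the other.

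Cryab, the small heat shock protein also known as alpha B-crystallin, was lower in hypo+ than in both control and hypo. Its control signals were 86.8, 67.6, 77.4, 103.5 and 63.2 (mean 79.7 ± 16.2, SD, n = 5). The hypo arrays read 83.0, 74.5, 89.3, 61.8 and 90.5 (79.8 ± 11.9, n = 5), and the hypo+ arrays 37.2, 36.7, 35.5, 60.8 and 44.6 (43.0 ± 10.6, n = 5). All 5 hypo+ arrays lay below every control and every hypo array, while the control and hypo ranges overlapped. The hyper arrays, at 49.7, 75.4, 41.7 and 64.9 (57.9 ± 15.1, n = 4), overlapped all other groups.

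On the log2(signal + 32) scale, which understates the change of a dim gene, Cryab fell by 0.57 ± 0.12 (SE) in hypo+ against control (limma adjusted p = 0.0387) and by 0.58 ± 0.12 against hypo (limma adjusted p = 0.0232). Cryab was the 1 member of 10 called in each of these comparisons, in which 0.551% and 1.58% of all genes were called, or 0.412% and 0.54% in the downward direction. Groups that did not overlap, with hypo+ below, were found in 2.39% of genes against control and in 1.61% against hypo. The median change of the 10 members was 0.01 against control and 0.09 against hypo, beside -0.02 and -0.01 for all genes. Cryab was also the 1 member called in the test of any difference among the 4 groups (limma adjusted p = 0.0333), which called 1.35% of genes.

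The hyper group, given the larger dose of hormone, gave a Cryab change of -0.32 ± 0.13 against control (limma adjusted p = 0.536), and hypo+ differed from hyper by -0.26 ± 0.13 (limma adjusted p = 0.42). The response to hormone in goitrogen-treated fetuses minus that in sucrose-treated fetuses was -0.26 ± 0.17 (limma adjusted p = 0.772), so a different response was not shown. These responses also differed in hormone dose, so goitrogen and dose cannot be told apart in this difference. In the authors' deposited table, the Cryab folds were -1.86 against control and -1.88 against hypo, both with an adjusted permutation p listed as 0.0000.

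Both Cryab calls rest on 1 dim probe set. Over 29 alternatives the call against control held in 16 and that against hypo in 23. Without control replicate 3 the change against control was -0.58 with a limma adjusted p of 0.111, and without hypo+ replicate 3 it was -0.54 with 0.0997. Without the 2 arrays with Y-linked signal, the change was -0.55 against control (limma adjusted p = 0.0639) and -0.55 against hypo (limma adjusted p = 0.0536). Against hypo, leaving out hypo replicate 3 gave -0.55 with a limma adjusted p of 0.0581, and leaving out hypo+ replicate 3 gave -0.55 with 0.0606. The other probe sets of Cryab were both called absent by the authors. Of these, 1434369_a_at followed the first across arrays (r = 0.73, n = 19) with group means of 54.2 in control, 52.9 in hypo, 38.3 in hypo+ and 49.6 in hyper, and 1435837_at stayed between 13.2 and 29.5 on all arrays. With the mean of the 3 probe sets as the gene value, the Cryab change against control was -0.28 (limma adjusted p = 0.181).

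Cryab is abundant in lens, muscle and glia, so their markers were summed on each array. Lens markers summed to between 87.2 and 162.6 over all groups, with Cryba1, Crygs and Mip at mean signals under 30 and 1 of 5 listed genes, Bfsp1, not measured. The 6 muscle markers summed to between 232 and 362.5 in control and 205.8 and 284.5 in hypo+, and the 8 astrocyte markers to between 5711.4 and 8847.9 and between 5865.7 and 6947.4. The lens, muscle and astrocyte sums overlapped between groups. The 8 oligodendrocyte lineage markers summed to between 2193.6 and 2700.5 in control, 2077.9 and 2510.6 in hypo, and 2548.5 and 2878 in hypo+. The hypo+ sums lay above every hypo sum. In hypo+ against hypo, 5 of these 8 markers had positive changes and 1 was called, beside 1.58% of all genes. That marker, Cnp, an enzyme of myelin-forming cells, rose by 0.55 ± 0.11 (limma adjusted p = 0.0181). The 11 cortex markers had a median change of -0.22 in hypo+ against control, with 0 called. The 8 markers of choroid plexus, a tissue that could be carried over, had a median change of 0.53 there, with 7 positive and 0 called. Against hypo their median was -0.08, with 2 positive and 0 called. The ratio of 3′ to 5′ signal of Actb, a measure of RNA integrity, ran from 1.136 to 1.167 in hypo+. This lay above the hypo range of 1.118 to 1.133 and overlapped the control range of 1.105 to 1.16. The same ratio of Gapdh overlapped between these groups, at 0.864 to 1.066 in hypo+, 0.858 to 0.932 in hypo and 0.856 to 0.967 in control. The part of these markers and of RNA integrity in the Cryab result was not tested.

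**Figure D1:**
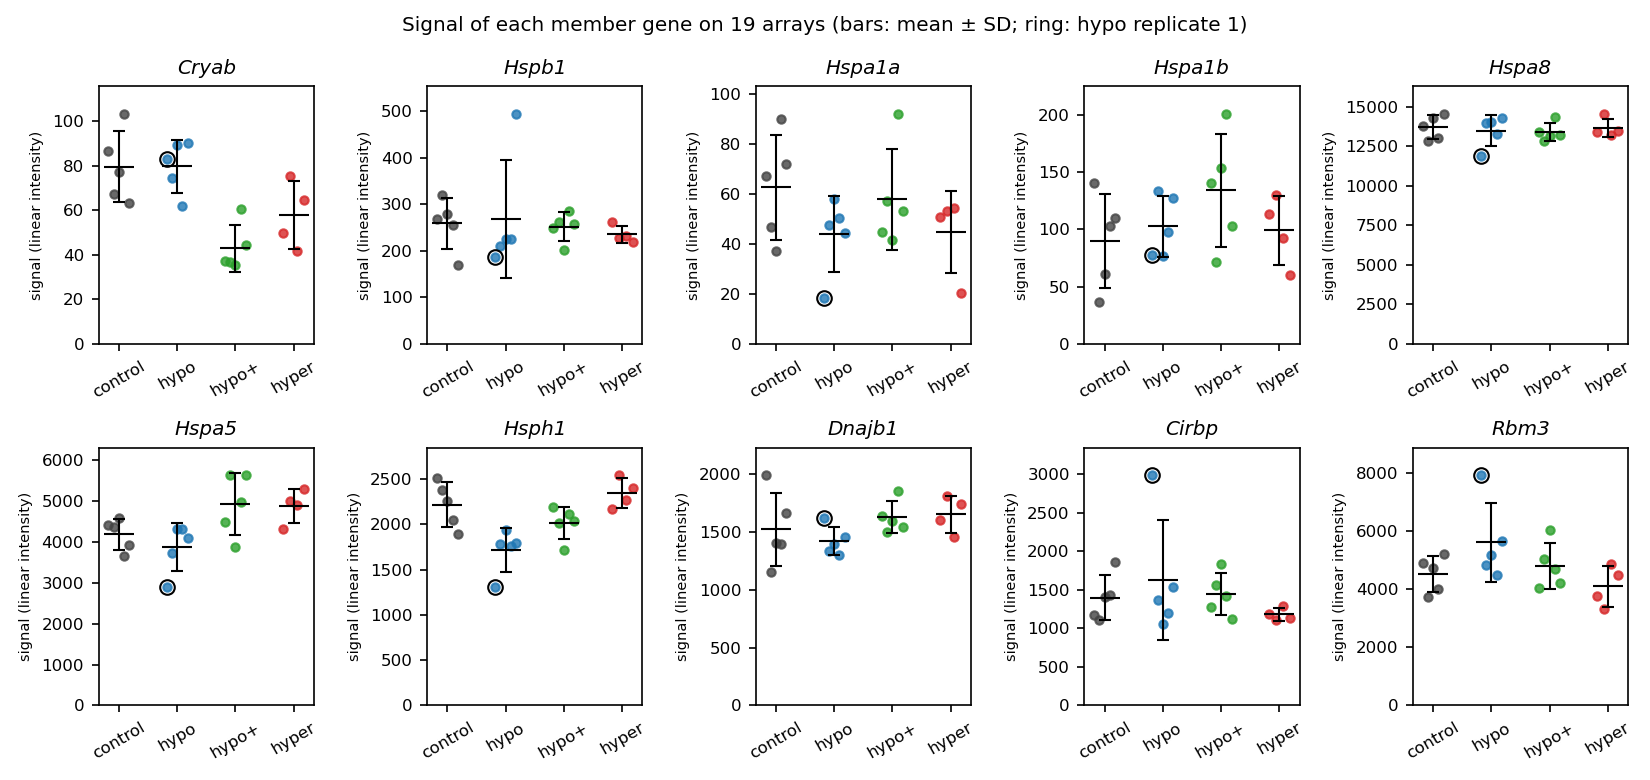
Signal of each of the 10 genes (y axis, linear intensity from 0) on the 19 arrays by group (x axis), with black bars for the mean ± SD and a ring around hypo replicate 1. The 5 hypo+ points of Cryab, between 35.5 and 60.8, sit below all control and hypo points, while the groups of Hspa8 overlap.

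Hspb1 (Hsp27), the other small heat shock protein, showed no call in any comparison. Its control arrays read 268.8, 319.9, 278.9, 255.0 and 170.4, and its hypo arrays 186.0, 209.9, 225.5, 224.1 and 494.1. The hypo+ arrays lay between 202.3 and 286.3 and the hyper arrays between 219.5 and 261.5. The groups overlapped, and 1 array, hypo replicate 5, stood far above the rest on both Hspb1 probe sets, at 494.1 and 287.1. That array set the group's spread: the hypo change of -0.01 ± 0.19 against control became -0.24 ± 0.12 without it (limma adjusted p = 0.568).

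Hspa1a and Hspa1b, the heat-inducible Hsp70 pair, were both dim. Hspa1a read 67.1, 46.7, 37.0, 89.7 and 72.0 in control, 18.2, 47.6, 58.1, 50.5 and 44.5 in hypo, 44.7, 57.1, 41.6, 92.0 and 53.2 in hypo+, and 50.9, 53.3, 54.3 and 20.5 in hyper. All of these groups overlapped, with group means between 43.8 and 62.5. For Hspa1a the difference between the hormone responses was 0.55 ± 0.28 (limma adjusted p = 0.667).

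Hspa1b read 140.3, 36.7, 61.0, 102.7 and 109.6 in control and 140.3, 71.1, 153.8, 200.8 and 103.2 in hypo+. Its hypo arrays lay between 76.9 and 133.0 and its hyper arrays between 60.2 and 130.1. The hypo+ mean of 133.8 ± 49.5 was the highest group mean, but its change of 0.46 ± 0.24 against control did not pass (limma adjusted p = 0.417), and the second Hspa1b probe set had an authors' fold of 1.02. Of the Hspa1a and Hspa1b probe sets, 2 were called absent by the authors, and 1 of these also names Hspa1l.

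Hspa8 (Hsc70), the Hsp70 of unstressed cells, was the brightest member and the steadiest. Its group means were 13703.9 ± 746.6 in control, 13493.1 ± 978.9 in hypo, 13388.1 ± 562.6 in hypo+ and 13663.0 ± 589.9 in hyper. The highest mean was 1.02 times the lowest, and its changes against control lay between -0.03 and 0.00 with SEs of 0.06. A dimmer Hspa8 probe set, 1420622_a_at, ranged from 1967.5 to 5550.3 within the same arrays, and another, 1431182_at, also names 3 other loci.

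Hspa5 (BiP), the Hsp70 of the endoplasmic reticulum, had higher means in both hormone-injected groups on the probe set used for the gene. It read 4407.4, 4350.3, 4580.6, 3639.5 and 3919.3 in control and 2904.3, 3715.4, 4314.1, 4304.0 and 4088.4 in hypo. It read 4482.6, 5626.8, 3868.5, 4976.3 and 5621.2 in hypo+ and 4306.3, 5001.0, 4903.6 and 5298.8 in hyper. The groups overlapped, and the largest change, 0.34 ± 0.12 in hypo+ against hypo, did not pass (limma adjusted p = 0.141). Without hypo replicate 1 it was 0.25 ± 0.10 (limma adjusted p = 0.297). The 3 Hspa5 probe sets had positive changes in that comparison, 0.34, 0.28 and 0.14. In hyper, the dimmest of them, 1447824_x_at, had a mean of 750.3, beside 758.2 in control and 761.5 in hypo. Across arrays the probe sets correlated at r of 0.341, 0.185 and -0.377 (n = 19).

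Hsph1 (Hsp110), which frees Hsp70 from its spent nucleotide, was lowest in hypo. Its control arrays read 2506.7, 2377.0, 2252.7, 2049.7 and 1891.0 (2215.4 ± 247.5), and its hypo arrays 1306.3, 1781.8, 1941.6, 1765.0 and 1795.7 (1718.1 ± 240.7). The hypo+ arrays read 2189.6, 2012.1, 1716.1, 2118.2 and 2032.8 (2013.8 ± 180.8), and the hyper arrays 2167.1, 2541.6, 2265.8 and 2403.2 (2344.4 ± 163.2). All hypo arrays lay below all hyper arrays, and 1 hypo array overlapped the control range.

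Hsph1 fell by 0.45 ± 0.11 in hypo against hyper (limma adjusted p = 0.0436), a comparison added after the data had been seen, and was the 1 member of 10 called there. In that comparison 1.2% of all genes were called, 1.07% downward, and groups with hypo below did not overlap in 5.48% of genes. Without hypo replicate 1 the Hsph1 change was -0.36 (limma adjusted p = 0.0664), and without the 2 arrays with Y-linked signal it was -0.44 (limma adjusted p = 0.0957). The second Hsph1 probe set, 1423566_a_at, followed the first across arrays (r = 0.78, n = 19). In hypo against hyper this second set changed by -0.47 ± 0.18 but was not called (limma adjusted p = 0.202), and its groups overlapped. The authors' deposited table gave a fold of -1.37 and an adjusted permutation p of 0.0150 for the first probe set. For the second it gave -1.40 and 0.1764. Against control, the Hsph1 change in hypo was -0.37 ± 0.10 (limma adjusted p = 0.23), in a comparison that called 0 of 17967 genes, with 1773 genes (9.87%) and 1 member at an unadjusted limma p under 0.05.

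Dnajb1 (Hsp40), which brings clients to Hsp70, had group means from 1421.1 ± 124.2 in hypo to 1651.0 ± 158.8 in hyper. Its control arrays alone ran from 1156.8 to 1989.8. The 2 Dnajb1 probe sets disagreed in hypo+ against control, with changes of 0.11 ± 0.11 and -0.29 ± 0.11 (limma adjusted p = 0.687 and 0.185), so no direction can be given.

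**Figure D2:**
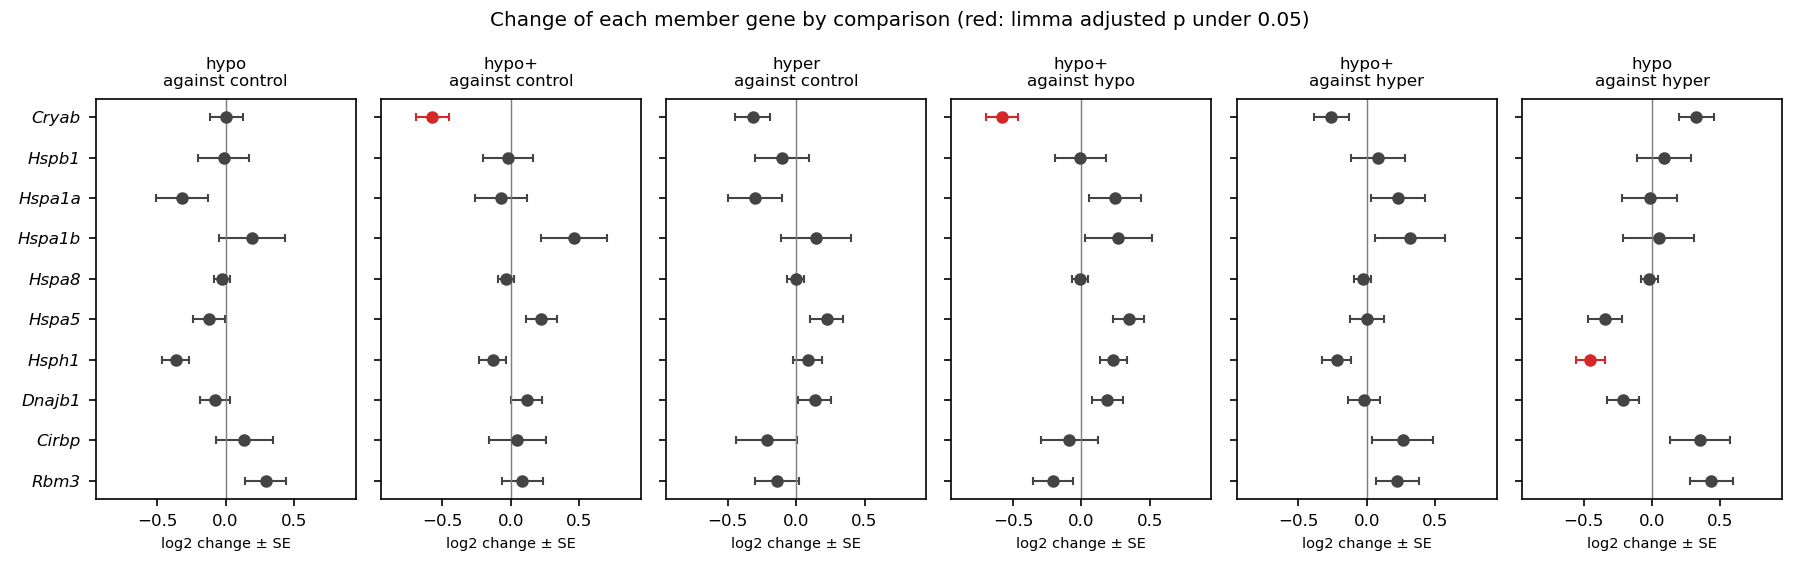
Log2 change ± SE of each of the 10 genes (x axis) in 6 comparisons, with limma adjusted p under 0.05 in red. Cryab is red in hypo+ against control and against hypo, and Hsph1 in hypo against hyper.

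On the probe sets used for the genes, the cold inducible genes had their highest means in hypo, but 1 array carried much of that. Cirbp read 2991.4, 1371.7, 1055.8, 1196.8 and 1542.5 in hypo, and Rbm3 read 7915.2, 4820.4, 5162.3, 4477.7 and 5646.5. The first value of each, hypo replicate 1, was the highest of the 19 arrays. On the 18 other arrays Cirbp lay between 1055.8 and 1862.1 and Rbm3 between 3306.3 and 6013.1.

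Cirbp read 1180.6, 1105.3, 1409.3, 1440.5 and 1862.1 in control, 1275.4, 1565.2, 1831.1, 1419.7 and 1128.0 in hypo+, and 1194.2, 1110.4, 1296.0 and 1138.4 in hyper. Its change in hypo against control was 0.14 ± 0.21 (limma adjusted p = 0.904), and without hypo replicate 1 it was -0.10 ± 0.15 (limma adjusted p = 0.914). The sign of the Cirbp difference thus turned on that array.

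Rbm3 read 4901.5, 3738.6, 4711.2, 4008.9 and 5189.8 in control, 4027.6, 5045.7, 6013.1, 4677.6 and 4213.0 in hypo+, and 3753.5, 3306.3, 4857.2 and 4492.4 in hyper. Its change in hypo was 0.29 ± 0.15 against control (limma adjusted p = 0.545), and 0.16 ± 0.13 without hypo replicate 1 (limma adjusted p = 0.81). Against hyper the Rbm3 change was 0.43 ± 0.16 (limma adjusted p = 0.181). The groups overlapped in each case. The second Rbm3 probe set, 1429169_at, was far dimmer, between 121.4 and 308.0, and did not follow the first across arrays (r = -0.01, n = 19). Its lowest mean was in hypo, 190.0, beside 207.0 in control, 204.3 in hypo+ and 251.5 in hyper. On this probe set the change in hypo against hyper was -0.38 ± 0.19 (limma adjusted p = 0.355), so no direction can be given for Rbm3.

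Hypo replicate 1 stood apart in some of the heat shock members too. It was the lowest of 19 arrays for Hspa1a at 18.2, Hspa8 at 11883.3, Hspa5 at 2904.3 and Hsph1 at 1306.3. Its Cirbp signal was 2.32 times, its Rbm3 signal 1.57 times and its Hsph1 signal 0.72 times the mean of the other 4 hypo arrays. Hspb1 and Hspa1b were at 0.65 and 0.72 times that mean, but Cryab was at 1.05 times and Dnajb1 at 1.18 times. The second Dnajb1 probe set, 1416756_at, read 1300.7 there, the highest of the 19 arrays. Over all genes hypo replicate 1 was the highest array for 9.07% and the lowest for 9.41%. Of 32 measured genes of the wider cytosolic heat shock network, it was the lowest array for 8, among them the master regulator Hsf1 and the co-chaperones Dnaja1, Ahsa1 and Stip1, and the highest for Hspa4 and Hspb6. Other arrays also stood out on this list: control replicate 1 was the highest for 11 of the 32 and control replicate 2 the lowest for 7. The mean correlation of hypo replicate 1 with the other arrays, 0.9859, was the lowest of the 19, next to 0.9861 for control replicate 2.

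**Figure D3:**
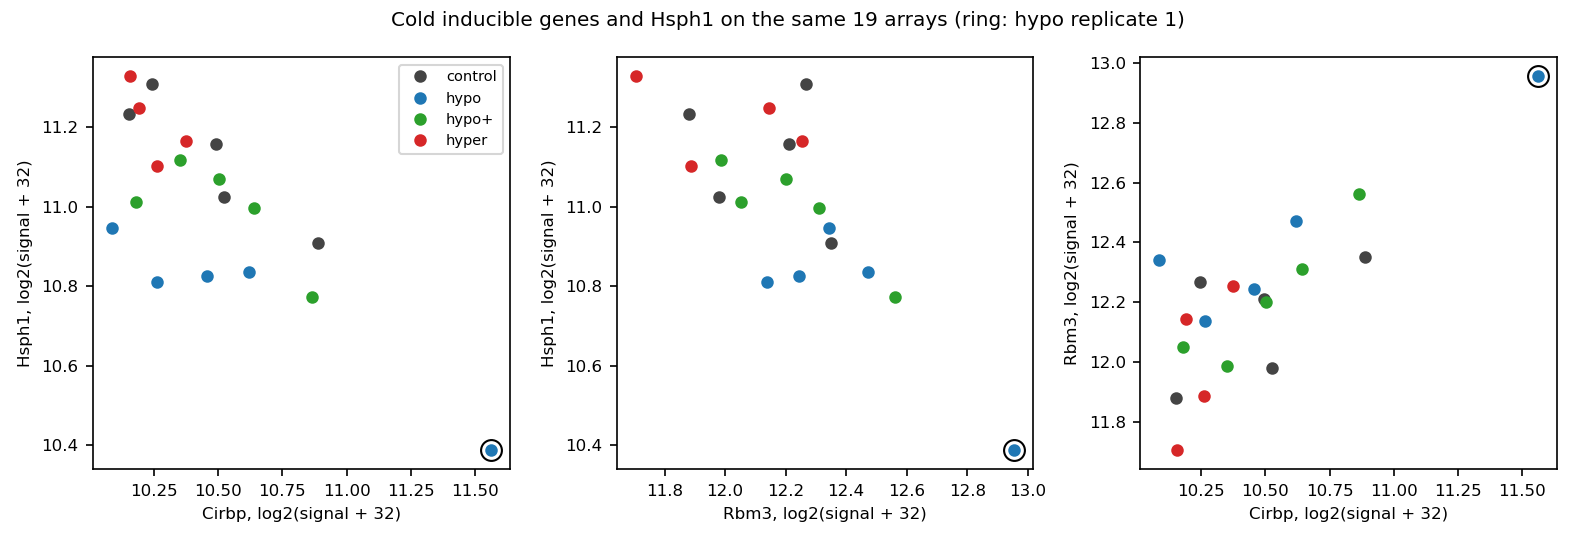
Log2(signal + 32) of Hsph1 against Cirbp and Rbm3, and of Rbm3 against Cirbp, on the 19 arrays coloured by group, with a ring around hypo replicate 1. The ringed array is the highest for both cold inducible genes and the lowest for Hsph1.

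Across the 19 arrays, Hsph1 ran against both cold inducible genes, and Hspa5 against Cirbp. Of the 45 pairs of members, Hsph1 with Rbm3 had a Pearson r of -0.78 (permutation p = 0.00024, adjusted over the pairs 0.0054) and a Spearman rho of -0.61 (permutation p = 0.0068, adjusted 0.096). Without the 2 arrays farthest from the Hsph1 median r was -0.52, without hypo replicate 1 it was -0.61, and over deviations from group means it was -0.66. Hsph1 with Cirbp had r of -0.78 (permutation p = 0.00056, adjusted 0.0084), rho of -0.60 (permutation p = 0.00853, adjusted 0.096), -0.52 without the 2 farthest arrays and -0.56 without hypo replicate 1. Over deviations from group means, Hsph1 with Cirbp had r of -0.89. Hspa5 also ran against Cirbp, with r of -0.66 (permutation p = 0.00348, adjusted 0.0313) and rho of -0.45 (permutation p = 0.0543, adjusted 0.399). For this pair r was -0.55 without the 2 arrays farthest from the Hspa5 median, -0.38 without hypo replicate 1 and -0.72 over deviations from group means. The arrays share 1 normalization, and its part in these correlations was not tested. The permutations moved arrays freely across groups, and how often other gene pairs reach such an r was not tested.

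Cirbp and Rbm3 varied in the same direction across arrays, with r of 0.80 (permutation p = 0.00017, adjusted 0.0054) and rho of 0.62 (permutation p = 0.00547, adjusted 0.096). Their r was 0.61 without the 2 arrays farthest from the Cirbp median and 0.62 without hypo replicate 1. Hspa5 and Hsph1 had r of 0.69 (permutation p = 0.00137, adjusted 0.0154), rho of 0.63 (permutation p = 0.0047, adjusted 0.096) and 0.48 without hypo replicate 1. Cryab had no pair beyond 0.5 in size. The gene most like Cryab over the 19 arrays was Plekha8 (r = 0.90), that most like Hsph1 was Lman2l (r = 0.94), and that most like Cirbp was Zbtb22 (r = 0.90). For Rbm3, Sin3b (r = 0.87) and then Cirbp itself came first.

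The wider pathway lists held few calls. None of 32 measured genes of the cytosolic heat shock network was called in any of the 7 comparisons. Their median change was -0.12 in hypo against hyper, with 5 of 32 positive, beside -0.03 for all genes. The smallest p in hypo against control belonged to Hspa4l, an Hsp110 relative of Hsph1, at -0.30 ± 0.10 (limma adjusted p = 0.352).

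Of 21 genes of endoplasmic reticulum stress and chaperoning, 1 rose in hypo+ against hypo, where 1.58% of all genes were called and 1.04% upward, and 2 fell in hypo against hyper, where 1.2% were called and 1.07% downward. Sel1l, an adaptor of the degradation complex of that compartment, rose by 0.30 ± 0.07 in hypo+ against hypo (limma adjusted p = 0.0411), with group means of 1514 in control, 1280.3 in hypo, 1588.6 in hypo+ and 1480.8 in hyper. Pdia3, a disulfide isomerase, fell by 0.36 ± 0.09 in hypo against hyper (limma adjusted p = 0.0478). Creld2, a gene of the stress response of that compartment, fell by 0.55 ± 0.12 in the same comparison (limma adjusted p = 0.0343), from a mean of 491.5 in hyper to 325.8 in hypo. The median of the 21 genes there was -0.11. Hypo replicate 1 was the lowest of the 19 arrays for 5 of the 21 (23.8%), Sel1l and Creld2 among them, beside 9.41% of all genes. It was the highest for 1, Atf4. The part of that array in the Sel1l and Creld2 calls was not tested.

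Of 15 cold shock domain and temperature-linked RNA genes, and of 12 immediate early genes that respond to handling, none was called. Csdc2, a cold shock domain protein, came nearest, with a difference between the hormone responses of 0.69 ± 0.16 (limma adjusted p = 0.206), in a test that called 0.0111% of genes. In hyper against control, where 0.0445% of genes were called, and in hypo+ against hyper, where 0.0501% were, no member and no gene of these 4 lists passed.

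**Figure D4:**
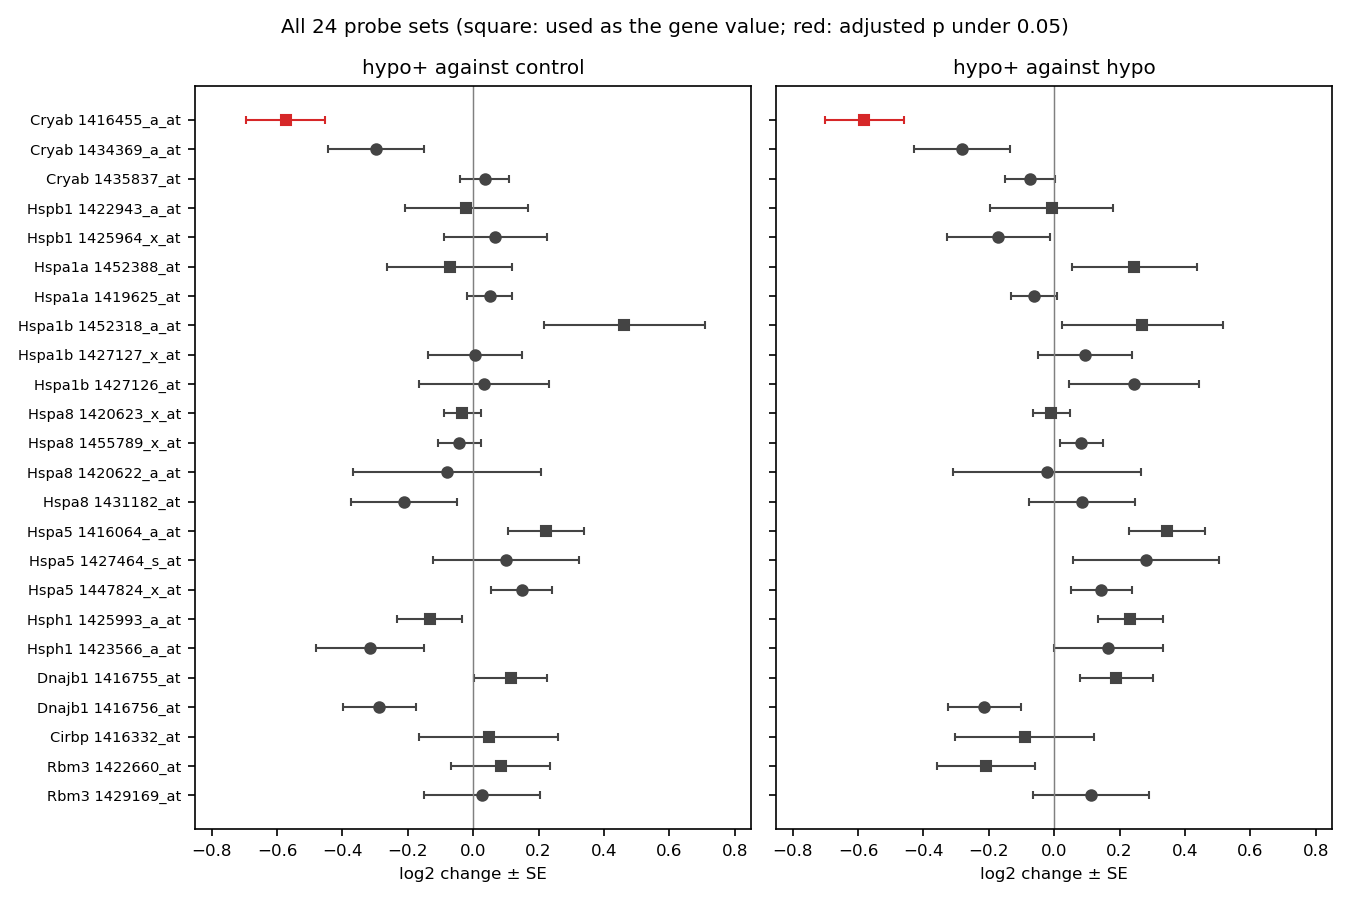
Log2 change ± SE (x axis) of all 24 probe sets (y axis) in hypo+ against control and against hypo, with squares for those used as the gene value and limma adjusted p under 0.05 in red. The single red probe set in both panels is Cryab 1416455_a_at, and the 2 Dnajb1 probe sets lie on opposite sides of 0.

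Tested on their own, 1 of the 24 probe sets was called in hypo+ against control, where 3.11% of all probe sets were called, and 1 in hypo+ against hypo, where 3.16% were. Both calls were Cryab 1416455_a_at (limma adjusted p = 0.0159 and 0.0151). In hypo against hyper, 1 of 24 was called beside 1.26% of all probe sets, Hsph1 1425993_a_at (limma adjusted p = 0.0445).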

How the data were processed

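Signals came from 1 Affymetrix array per fetus, described in the labels as a rat design although the deposited probe sets are annotated to mouse genes. The authors deposited a linear intensity per probe set and array. The submitters' processing notes name RMA and MAS5 without saying which made these values. The authors' deposited table gave a signed fold (score) and a permutation p-value per comparison, and a present or absent call. Some labels name another goitrogen than the protocol, which was followed here.

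Probe sets were matched to 1 current RefSeq gene (34075 of 45037). Values became log2(deposited intensity + 32) and were fitted with limma 3.58.1 in R 4.3.3 over all 19 arrays in 4 groups, two-sided, with Benjamini-Hochberg adjustment over all genes and a threshold of 0.05. The fit was tested on simulated data. All 10 members are named. From the wider lists, genes past the threshold or with the smallest p were eligible, and for similarity the genes with the highest r. Members and lists were chosen with earlier results of these data known. Alternatives covered the pseudocount, normalization, probe set choice, arrays and replicate block.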

Additional observations from a re-analysis of the deposited data

Results flagged for a closer look

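In 4 of 40 groups of member signals, 1 array lay far from the others of its group, where chance gives about 1 in 20. Hspb1 in hypo replicate 5 was 494.1, above the other 4 arrays. Hspa1a in hypo replicate 1 was 18.2 and in hyper replicate 4, which carried Y-linked signal, 20.5, each the lowest of its group. Hsph1 in hypo replicate 1 was 1306.3, the lowest of its group.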

How the results depend on the processing

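The called changes of Cryab and Hsph1 kept their direction in all alternatives run. Single genes outside the 10 members were not followed under them, only the number of all genes called. The Cryab change against control ran from -0.88 to -0.28 over 29 alternatives and kept its call in 16; against hypo it ran from -0.89 to -0.31 and kept it in 23. Hsph1 in hypo against hyper ran from -0.50 to -0.36 and kept it in 10. The count of 1 called member became 0 in hypo+ against control and in the test over 4 groups with a pseudocount of 1, the mean of the probe sets, the replicate block or without both Y-linked arrays, and in hypo+ against control also with only the arrays compared. In hypo+ against hypo it became 0 with the mean of the probe sets and without both Y-linked arrays. In hypo against hyper it became 0 with a pseudocount of 1, quantile normalization, median centring, the mean of the probe sets, only the arrays compared, the replicate block and without both Y-linked arrays. Leaving out 1 array at a time gave 0 to 1 in each of these 4 tests. Against control the arrays that ended the Cryab call were control 1, 3, 4 and 5 and hypo+ 1, 2, 3 and 5, and against hypo they were hypo 1, 3 and 5 and hypo+ 3. For Hsph1 they were control 3, hypo 1, 2, 4 and 5, hypo+ 2, 4 and 5, and hyper 1 to 4. The cause was not tested. With the replicate block, Cryab had a limma adjusted p of 0.0674 against control and 0.0431 against hypo, and Hsph1 0.093. Same-numbered arrays correlated between -0.363 and 0.433, over 0.1 in 7 of 27 pairs. Between arrays numbered 1 the values were 0.212, 0.433, 0.23, 0.19, 0.213 and -0.023. Whether the numbers pair the arrays was not tested. With median centring the median of all genes was -0.12 in hypo+ against control, beside -0.02 without it. Genes called in hypo+ against control were 99, but 5 with a pseudocount of 1, 197 with 100, 20 with the replicate block, 249 with array weights and 0 without control replicate 3. Signals near the array's low end limit Cryab, Hspa1a and Hspa1b.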
